A study of Homo sapiens with 6 samples.

Results

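Chromosome 19 of the human genome carries long rows of zinc finger genes, and 183 of them were followed here in HK-2, an established human cell line that derives from the proximal tubule of the kidney and was immortalised with papillomavirus genes. A member was a protein-coding gene of chromosome 19 whose symbol was ZNF followed by digits and at most 1 letter, with a mean raw count of 50 or more over the 6 libraries. Of the 26899 genes listed, 237 had such a symbol on chromosome 19 and 183 of these reached the floor. The rule used no difference between groups. The comparison set 3 libraries labelled ANXA2 knockdown against 3 labelled control, all of cells that had received plasmid by lipid-mediated transfection. The titles called the controls WT and the descriptions called them shCtrl, so the presence of a control hairpin is not settled by the labels. Polyadenylated RNA was sequenced, and nothing in the labels says whether the numbered libraries came from separate cultures, so p-values measure only the spread between these libraries.

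The proteins of these genes bind DNA through C2H2 fingers, short loops in which a pair of cysteines and a pair of histidines hold a zinc ion. In most of them a KRAB domain precedes the fingers. This domain recruits TRIM28, which in turn brings SETDB1, a histone H3 lysine 9 methyltransferase, to the bound DNA, and much of this silencing acts on transposable elements. Other proteins of the family carry a SCAN domain, which pairs proteins with each other, or fingers alone. Tandem duplication produced the rows of genes, and neighbouring genes are often close relatives.

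The libraries held 24231267 to 34561675 counted reads, and TMM scaling factors lay between 0.987 and 1.02. ANXA2, which encodes the membrane-binding protein annexin A2 and was the labelled target, stood at 827, 743 and 841 FPKM in control libraries 1, 2 and 3 and at 762, 775 and 763 FPKM in the libraries labelled knockdown. Its log2 fold change was −0.05 (SE 0.07, edgeR adjusted p = 0.848), so the target did not check the labels, and directions below are those of the libraries as labelled. The epithelial markers KRT8 (366 to 570.5 FPKM), KRT18 (212 to 293) and PAX8 (76.1 to 150) were abundant in every library. The transport genes of the mature proximal tubule CUBN and AQP1 reached at most 0.03 FPKM. The endothelial markers PECAM1 and CDH5 reached at most 0.07 FPKM. The 2 leukocyte genes listed with FPKM, CD14 and LYZ, summed to 0.59 to 1.28 FPKM in the controls and 0.94 to 1.71 in the libraries labelled knockdown. The fibroblast markers COL1A1, DCN and LUM summed to 8.4 to 9.87 FPKM and 7.84 to 8.74 FPKM, most of it LUM.

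To see how the members differ from one another, the coding bases of the first finger are shown for 6 of them that recur below. They were read from the transcripts of GENCODE release 44 on GRCh38, and capitals mark the codons of the 2 cysteines and 2 histidines that hold the zinc.
ZNF587, chr19:57858692-57858754, plus strand: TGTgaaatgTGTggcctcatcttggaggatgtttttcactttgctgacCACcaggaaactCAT
ZNF627, chr19:11617008-11617070, plus strand: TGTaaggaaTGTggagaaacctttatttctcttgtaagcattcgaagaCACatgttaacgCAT
ZNF91, chr19:23362283-23362345, minus strand: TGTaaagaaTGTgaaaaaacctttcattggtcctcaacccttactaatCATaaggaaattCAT
ZNF274, chr19:58212706-58212768, plus strand: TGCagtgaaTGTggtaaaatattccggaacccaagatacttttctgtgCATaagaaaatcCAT
ZNF580, chr19:55642788-55642850, plus strand: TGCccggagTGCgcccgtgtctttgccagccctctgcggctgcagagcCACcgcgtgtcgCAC
ZNF784, chr19:55622462-55622524, minus strand: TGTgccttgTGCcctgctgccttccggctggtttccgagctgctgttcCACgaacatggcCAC
Each stretch is 63 bases long and exonic. The fingers of ZNF587, ZNF627, ZNF91 and ZNF274, which belong to proteins with a KRAB match, had 31.7% to 44.4% GC. Those of ZNF580 and ZNF784, which had no such match, had 71.4% and 61.9% GC. The coding sequences as a whole differed in their medians but overlapped. A KRAB match, found with a short amino acid pattern ahead of the first finger, was present in 156 members, whose coding sequences had a median GC content of 41.5% (35.97% to 65.2%). A SCAN match without KRAB was found in 2 members, ZNF444 and ZNF446, and 25 members had neither, with a median coding GC content of 62.6% (37.8% to 74.97%). KRAB members had a median of 12 fingers (3 to 31), and members with neither domain had a median of 9 (1 to 20). A missed match says only that the pattern was not found in the canonical transcript.

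The members were expressed at low levels. Their mean FPKM over the 6 libraries ranged from 0.168 to 21.3, with a median of 0.972, and together they took 0.139% to 0.162% of all counted reads. Only 9 members reached a mean of 10 FPKM, and 7 of these had neither domain. Of the 94 members under 1 FPKM, 92 were KRAB members. The median over members was 0.848 FPKM for KRAB and 4.41 FPKM for neither. No member was without reads in any library.

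ZNF787 had the highest level, with 21.9, 20.9 and 20.1 FPKM in control libraries 1 to 3 and 21.6, 23.4 and 19.9 FPKM in the libraries labelled knockdown. It was followed by ZNF581 (17.5 FPKM on average), ZNF444 (13.5), ZNF579 (12.1) and ZNF428 (11.5). ZNF274 averaged 11.1 FPKM and was the only KRAB member above 10 FPKM. Its protein is known to bind the 3′ ends of other zinc finger genes and to recruit SETDB1 there. ZNF358 (10.7), ZNF580 (10.6) and ZNF146 (10.0) came next, and ZNF146 encodes a protein made of fingers alone. Neighbours in this order differed by less than the spread between libraries in several places, since ZNF358 ranged from 9.27 to 12.1 FPKM and ZNF146 from 8.04 to 14.5. At the other end, ZNF91, whose 31 fingers were the most of any member and whose product silences SVA and LINE-1 elements, averaged 0.451 FPKM.

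In order to compare the groups, all 15299 genes that passed the filter on low counts were fitted in 1 edgeR model, and all 183 members were among them. The members were on the whole slightly lower in the libraries labelled knockdown, with log2 fold changes that had a median of −0.11 and an interquartile range of −0.32 to 0.05. In bulk RNA a lower level in each cell and fewer cells that express a gene cannot be told apart. In that model 125 members had a negative and 58 a positive value, with extremes of −0.83 and 0.51. The median over all tested genes was −0.01. KRAB members carried the lower values, with a median of −0.15 and 115 of 156 negative, which became −0.055 and 99 of 156 without control library 2. The 25 members with neither domain had a median of 0.05, with 15 positive and 10 negative, and both SCAN members were positive. The difference between these classes was not tested.

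**Figure D1:**
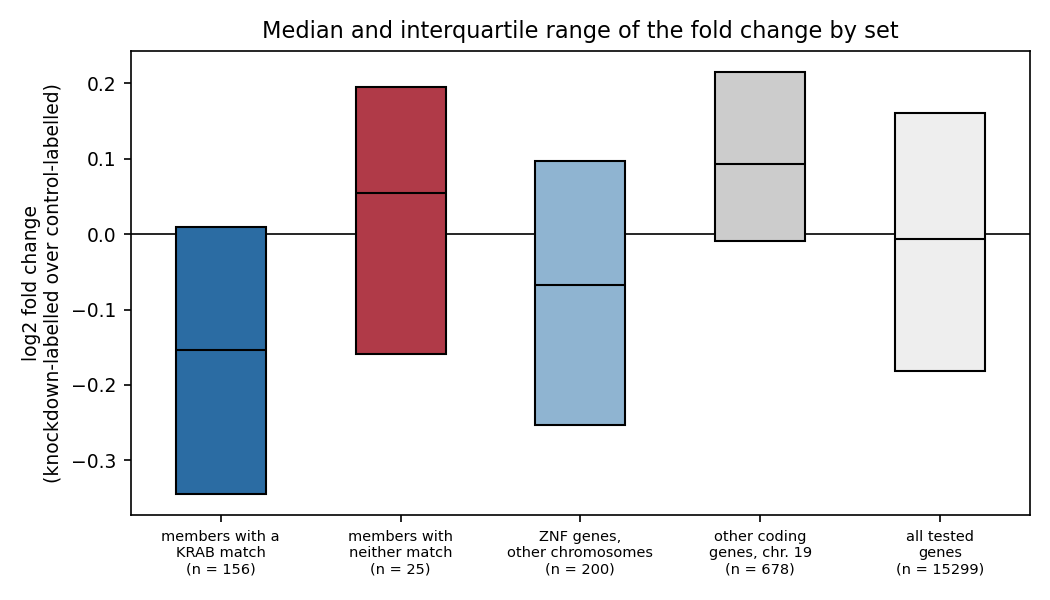
Log2 fold change of the libraries labelled knockdown over those labelled control (vertical axis), with boxes for the interquartile range and a line at the median over the genes of each set. KRAB members had the lowest median, −0.15, and the other protein-coding genes of chromosome 19 the highest, 0.09.

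No member passed an adjusted p of 0.05 in edgeR, and neither did any of the 15299 genes (0%). The smallest adjusted p of a member was 0.599. At an unadjusted p under 0.05 stood 13 members (7.10%), against 8.18% of all tested genes. Of these, 11 were lower (6.01% of members, against 4.32% of all genes) and 2 were higher (1.09%, against 3.86%). The edgeR share of members was thus not above the background. DESeq2 called 0 members but 32 of all genes in its fit, with 13 members and 1285 genes at an unadjusted p under 0.05. Limma-voom called 0 members and 0 genes, with 12 members and 1322 genes at that threshold. The count of members at that threshold was lower in other fits. It was 8 with limma-trend on log2(FPKM + 0.1), 7 in edgeR without control library 2, and 4 with a correction for GC content. Over all tested genes these fits had 1270, 739 and 1001 genes at that threshold, against 1251 in the main fit. In 22 members (12.02%) every library labelled knockdown was below every control, and 7.7% of all genes had such groups. The opposite held for 6 members (3.28%), against 7.94% of all genes. Zinc finger genes of other chromosomes that met the same symbol rule and floor had similar shares, 12% apart and lower and 4.5% apart and higher (n = 200). At an unadjusted edgeR p under 0.05, 5.5% of those genes were lower and 0.5% higher. Without regard to direction, 15.3% of members and 15.6% of all tested genes had groups that did not overlap.

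**Figure D2:**
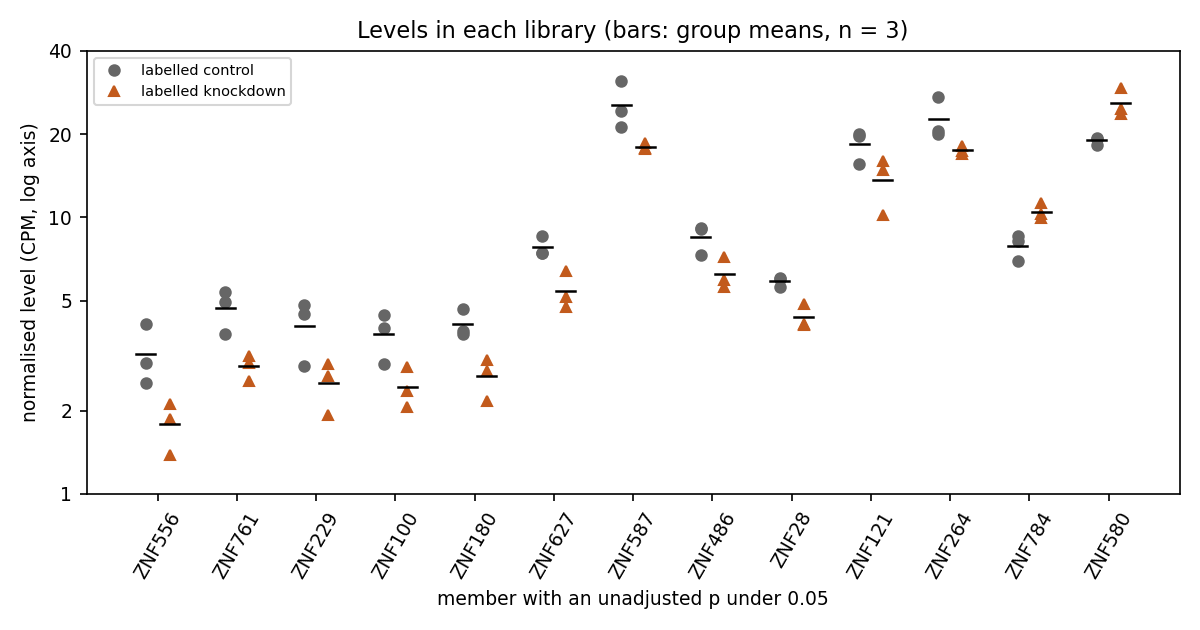
Normalised level in CPM on a log axis for the 13 members with an unadjusted edgeR p under 0.05, with a point for each library and a bar at each group mean (n = 3). The groups overlapped for ZNF229 and ZNF121 and were apart for the other 11 members, of which ZNF580 and ZNF784 were higher in the libraries labelled knockdown.

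Levels of single members are given as TMM-scaled CPM, counts relative to the library total, in the order of libraries 1 to 3. ZNF587, a KRAB protein with 13 fingers, had 21.2, 31.1 and 24.2 CPM in the controls and 18.5, 17.7 and 17.8 CPM in the libraries labelled knockdown. The groups did not overlap, and control library 2 was far above the others. The log2 fold change was −0.50 (95% interval −0.85 to −0.15, edgeR unadjusted p = 0.010, adjusted p = 0.599) and was −0.33 without control library 2. Of its transcript, 14.7% of 100-base windows were shared with other genes, mainly ZNF417. The whole gene, chr19:57849859-57865117, also lies within the span of ZNF814, chr19:57848731-57889074, on the opposite strand. Part of the count of ZNF587 may thus belong to ZNF417 or ZNF814.

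ZNF627, a KRAB protein with 11 fingers, had 8.53, 7.43 and 7.42 CPM in the controls and 6.39, 4.76 and 5.16 CPM in the libraries labelled knockdown. Every library labelled knockdown was lower than every control. The log2 fold change was −0.52 (95% interval −0.95 to −0.09, edgeR adjusted p = 0.605), and it shared no window with another gene. ZNF264, also KRAB, had 27.2, 20.6 and 19.97 CPM against 17.3, 18.1 and 16.97 CPM, again without overlap. Its log2 fold change was −0.37 (SE 0.15).

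The lowest value of any member was that of ZNF556, at 4.10, 2.51 and 2.98 CPM in the controls and 1.38, 2.12 and 1.87 CPM in the libraries labelled knockdown. It was counted at only 74.3 reads on average, and the 95% interval of its log2 fold change of −0.83 ran from −1.53 to −0.13. ZNF761 had 4.96, 5.38 and 3.79 CPM against 2.55, 3.15 and 2.98 CPM, with a log2 fold change of −0.70 (SE 0.24). Both had groups that were apart. The other members with lower values at this unadjusted threshold were ZNF229 (log2 fold change −0.69), ZNF100 (−0.64), ZNF180 (−0.62), ZNF486 (−0.45), ZNF28 (−0.44) and ZNF121 (−0.43). Of these 6, ZNF229, ZNF100, ZNF180 and ZNF28 were not reached by the rule for named genes and were chosen after their values were seen, as was ZNF264. ZNF347 (−0.44), ZNF850 (−0.42), ZNF773 (−0.41) and ZNF260 (−0.38) had larger p-values but were also among the 8 lowest with a mean count of 200 or more. Their groups overlapped except for ZNF260, which had 6.19, 10.2 and 6.55 CPM in the controls and 6.01, 5.66 and 5.89 CPM in the libraries labelled knockdown. Control library 2 was the highest library for all 4, and without it their values were −0.22 for ZNF347, −0.25 for ZNF850, −0.20 for ZNF773 and −0.12 for ZNF260. The value of ZNF121 was −0.26 without knockdown library 3.

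ZNF580, a short protein with 3 fingers and neither domain, had 19.2, 19.4 and 18.3 CPM in the controls and 24.7, 23.6 and 29.4 CPM in the libraries labelled knockdown. The groups were apart, and the controls lay close together. The log2 fold change was 0.45 (95% interval 0.16 to 0.74, edgeR unadjusted p = 0.0065, adjusted p = 0.599). ZNF580 and ZNF581 overlap on the same strand, at chr19:55635016-55643470 and chr19:55635459-55645623, so reads in the overlap could have been counted for either. ZNF581 itself had 27.9, 24.9 and 31.1 CPM against 31.4, 28.0 and 32.6 CPM, which overlapped.

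ZNF784, with 6 fingers, lies beside ZNF580 on the minus strand. It had 8.53, 6.94 and 8.19 CPM in the controls and 9.90, 10.3 and 11.3 CPM in the libraries labelled knockdown, also without overlap. Its log2 fold change was 0.41 (95% interval 0.05 to 0.78, edgeR adjusted p = 0.605). With a correction for GC content, the values of ZNF580 and ZNF784 were 0.29 and 0.28, and neither kept an unadjusted edgeR p under 0.05. ZNF274 had 30.3, 32.9 and 34.3 CPM against 39.1, 38.0 and 37.3 CPM, so its groups were apart in the same direction, with a log2 fold change of 0.23 (95% interval −0.01 to 0.47). The other 5 of the 8 highest with a mean count of 200 or more were ZNF160 (0.31), ZNF574 (0.21), ZNF865 (0.20), ZNF526 (0.19) and ZNF324 (0.19), all with overlapping groups. Each of these depended on single libraries. ZNF160 was 0.14 without control library 1 and 0.13 without knockdown library 2. ZNF574 was 0.083 and ZNF526 0.043 without control library 2, ZNF324 was 0.029 without control library 1, and ZNF865 was 0.021 without knockdown library 3. Without control library 3, by contrast, ZNF574 was 0.32, ZNF526 0.45 and ZNF324 0.39. The highest value of any member was that of ZNF296, at 0.51 with a 95% interval of −0.04 to 1.07 and a mean of 137 reads; it was named after its value was seen. With 3 libraries against 3, an exact two-sided permutation test of 1 gene cannot go below p = 0.1, and 28 members reached that value. It is reached only where the groups do not overlap, which held for 15.3% of members and 15.6% of all tested genes.

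Of the 10 members with well described products, ZNF274 alone had groups that did not overlap, as given above. ZNF93, which silences LINE-1 elements, had a log2 fold change of −0.05 (SE 0.19), and ZNF91 had −0.29 (SE 0.33). ZNF91 had 2.21, 4.50 and 2.47 CPM in the controls and 2.93, 2.36 and 2.22 CPM in the libraries labelled knockdown, so its value was set by control library 2, and without that library it was 0.10. ZNF331, an imprinted gene, had −0.07 (SE 0.30) and ZNF350, known as a partner of BRCA1, had −0.22 (SE 0.31). ZNF224 (−0.23), ZNF382 (−0.13) and ZNF304 (−0.08) were lower and ZNF568 (0.21) was higher by less than 1 SE. ZNF146 had −0.16 (SE 0.21), with control library 2 at 58.4 CPM and the other 5 libraries between 33.0 and 44.8 CPM. For all of these the 95% intervals spanned 0.

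Position along the chromosome was examined next. With a gap of more than 1 Mb taken as a break, the members formed 16 runs. The largest, chr19:55476617-58481230, held 54 members with a median log2 fold change of −0.05. The next, chr19:51571283-53580269, held 32 members, 26 of which were lower, with a median of −0.17. Run 9, chr19:36182276-37719761, held 17 members with a median of −0.25. In that run control library 2 stood alone, with a median deviation of 0.45 in log2 CPM against −0.04 and −0.01 in control libraries 1 and 3 and −0.13, 0.10 and 0.13 in the libraries labelled knockdown, and only 1 of its members had groups that did not overlap. The run of 32 members also had its highest median deviation in control library 2, at 0.30. Run 2, chr19:7069703-9675100, had 7 of 11 members higher and a median of 0.03. The log2 fold change of a member and of the next member along the chromosome correlated with r = 0.158 over 182 pairs, which share libraries and, in part, sequence.

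Within the largest run most members without KRAB lay together at 1 end. Its first 9 members, from ZNF628 to ZNF444 (chr19:55476617-56160893), included no KRAB member, had transcript GC contents of 61.8% or more, and 7 of 9 were higher. They include ZNF579, ZNF787, ZNF580, ZNF581 and ZNF784. The 42 KRAB members of that run had a median of −0.09, with 31 lower, and its other 12 members had a median of 0.09, with 9 higher.

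**Figure D3:**
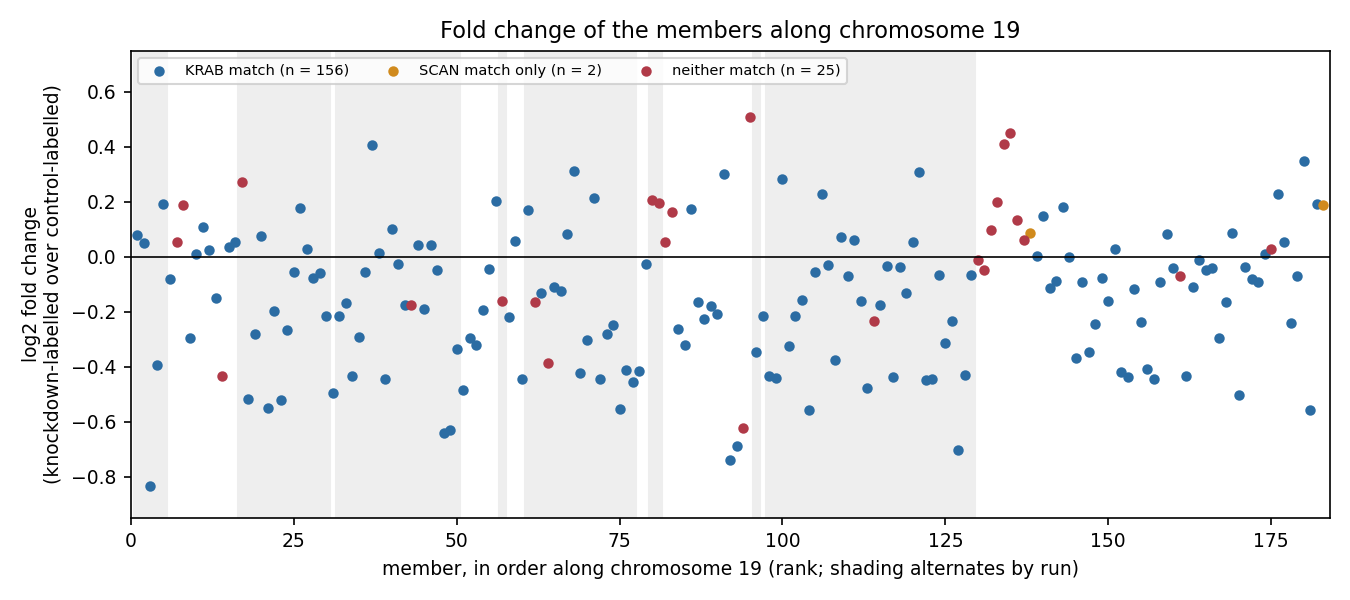
Log2 fold change of each of the 183 members (vertical axis) by rank along chromosome 19 (horizontal axis), coloured by class, with shading that alternates between the 16 runs. KRAB members lay mostly below 0 in most runs, and the 9 members at the start of the last run, which lack KRAB, lay at −0.05 to 0.45.

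Members with more fingers did not differ in a graded way. The median log2 fold change was −0.03 for the 37 members with 1 to 8 fingers, −0.15 for 64 with 9 to 12, −0.09 for 52 with 13 to 16 and −0.19 for the 30 with more. Across the 183 members r was −0.146 for finger number, −0.24 for transcript length and 0.386 for transcript GC content. Genes in 1 set of libraries are not independent, so these are descriptions. Members of higher level also stood higher: 7 of the 9 members at 10 FPKM or more had positive values, against 23 of the 94 below 1 FPKM.

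Transcript GC content divided the members as it divided all genes. The median GC content was 42.5% for members, 42.1% for KRAB members and 61.8% for members with neither domain, against 48.6% for all tested genes. Between 30% and 40% GC, 49 members had a median log2 fold change of −0.19 and all tested genes −0.16. Between 40% and 45% the 81 members had −0.15 and all genes −0.11. Between 45% and 55% the 32 members had −0.04 and all genes 0.01, and between 55% and 75% the 21 members had 0.16 and all genes 0.11. Over all tested genes with a GC value the correlation was 0.288 (n = 15122), whereas within KRAB members it was 0.0817 (n = 156). After a correction of each library for GC content, the median of the members was −0.03, with 106 lower and 77 higher, that of KRAB members −0.04 and that of members with neither domain −0.0014. Whether GC content had a part in the lower values was not tested further.

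**Figure D4:**
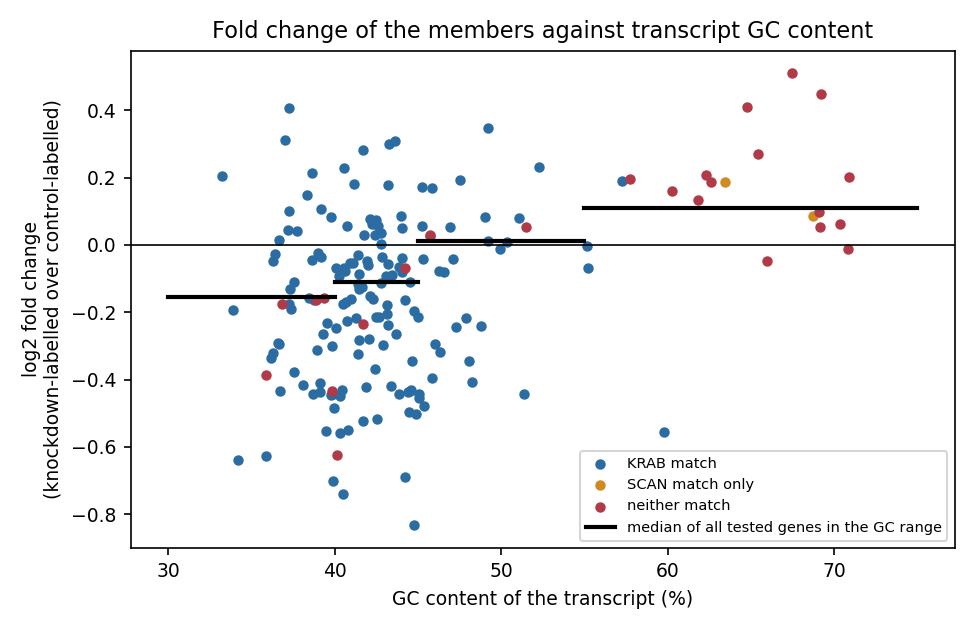
Log2 fold change (vertical axis) against GC content of the transcript in percent (horizontal axis) for the 183 members, coloured by class, with black bars at the median of all tested genes in each GC range. The members' values scattered around these bars, which rose from −0.16 at 30% to 40% GC to 0.11 at 55% to 75%.

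The libraries did not contribute equally. The median deviation of the members from their mean over 6 libraries, in log2 CPM, was 0.03, 0.17 and 0.01 in control libraries 1 to 3 and −0.08, −0.03 and −0.05 in the libraries labelled knockdown. Control library 2 was the highest of the 6 libraries for 74 of 183 members. In the same library the deviation of all tested genes ran most strongly with GC content (r = −0.439), and in knockdown library 1 it ran the other way (r = 0.317). Without control library 2 the median log2 fold change of the members was −0.04, with 108 lower and 75 higher, and the members at an unadjusted edgeR p under 0.05 numbered 7. The same count over all tested genes was 739 without control library 2 and 1251 with all 6 libraries. The part of that library in the result was not tested further.

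**Figure D5:**
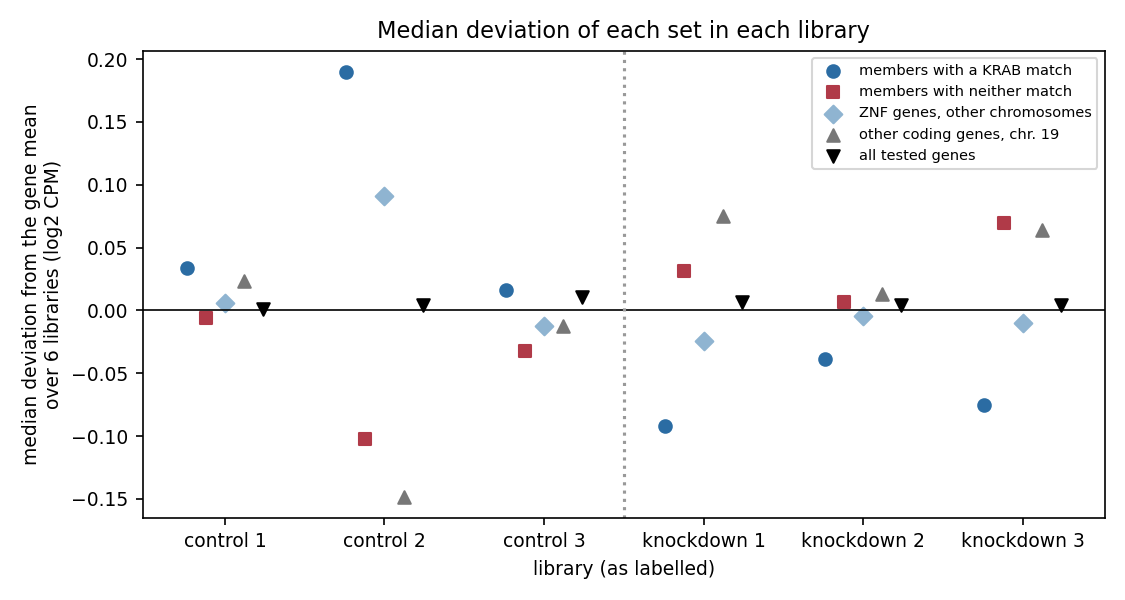
Median deviation from the gene mean over 6 libraries in log2 CPM (vertical axis) for 5 gene sets in each library (horizontal axis). KRAB members stood at 0.19 in control library 2 and the other protein-coding genes of chromosome 19 at −0.15, while all tested genes lay near 0 in every library.

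The 200 zinc finger genes of other chromosomes that met the same symbol rule and floor had a median log2 fold change of −0.07, with 125 lower. The 678 other protein-coding genes of chromosome 19 had a median of 0.09, with 495 higher, and a median GC content of 61.0%. Without control library 2 these medians were −0.042 and 0.052, and with the GC correction −0.05 and −0.02. Members and zinc finger genes elsewhere thus stood on the same side, and the other genes of chromosome 19 on the opposite side until the correction. No test of the difference between these sets was made.

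Upstream sequence was compared in windows of 250 bases before to 50 after each RefSeq start (GRCh38.p14), which were at hand for 166 of the 183 members. The letters CCGGAAG, the core bound by ETS factors, occurred on either strand in 81 of these windows (48.8%), against 10.7% of 27305 windows of all genes. Unlike the members, those 27305 windows were not filtered by expression or gene type, so the sets differ in more than family. TGACGTCA, the CRE palindrome, occurred in 7 member windows (4.22%) against 1.98%, and AAGATGGCG, part of the YY1 motif, in 6 (3.61%) against 1.85%. Median GC content was 61% in members and 58.3% in all windows, with 21 and 14 CpG dinucleotides. The 4 members below show the range, as the 100 bases before the start, with capitals for CCGGAAG or its reverse complement.
ZNF587, chr19:57849759-57849858, plus strand: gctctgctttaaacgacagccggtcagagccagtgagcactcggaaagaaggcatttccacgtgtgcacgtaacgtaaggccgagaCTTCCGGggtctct
ZNF627, chr19:11597383-11597482, plus strand: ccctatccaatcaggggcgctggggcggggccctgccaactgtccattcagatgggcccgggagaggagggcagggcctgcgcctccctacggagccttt
ZNF580, chr19:55640902-55641001, plus strand: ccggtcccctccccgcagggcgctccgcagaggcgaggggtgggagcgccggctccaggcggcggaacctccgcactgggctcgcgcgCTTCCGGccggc
ZNF784, chr19:55624567-55624666, minus strand: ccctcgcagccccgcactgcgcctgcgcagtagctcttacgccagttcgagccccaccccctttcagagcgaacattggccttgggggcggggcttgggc
The upstream bases of ZNF587 and ZNF580, which had opposite signs of fold change, both held the motif. Those of ZNF627 and ZNF784, again of opposite sign, did not. Among KRAB members the 74 with the motif in the window had a median log2 fold change of −0.10 and the 66 without it −0.17. A match in a window is a description of its letters, not evidence of binding.

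The silencing machinery with which KRAB proteins act was measured through a list of 25 genes. None was called by edgeR at an adjusted p of 0.05 or had an unadjusted p under 0.05, and 7 were higher and 18 lower, with a median log2 fold change of −0.08. TRIM28, the common partner of KRAB domains, had 231, 201 and 234 FPKM in the controls and 231, 207 and 238 FPKM in the libraries labelled knockdown. Its log2 fold change was 0.04 (SE 0.09, 95% interval −0.18 to 0.25). SETDB1 had 8.04, 8.13 and 8.53 FPKM against 9.36, 8.96 and 7.01 FPKM, with a log2 fold change of 0.05 (SE 0.13). The lowest value was that of FAM208A (−0.34, SE 0.18), now named TASOR, a subunit of the HUSH complex, which was named after its value was seen.

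At the floor of 50 reads, ZNF565 (52.5 reads on average), ZNF112 (53.3) and ZNF792 (53.8) were just inside and ZNF285 (46.3), ZNF790 (46.0) and ZNF569 (46.0) just outside. ZNF565 was counted at 20, 78 and 47 reads in the controls and 44, 69 and 57 reads in the libraries labelled knockdown. At this depth its log2 fold change of 0.17 had an SE of 0.43, whereas that of ZNF787 was 0.06 with an SE of 0.10. In 23 members at least 10% of 100-base windows were shared with another gene, and for these the counts may be divided between relatives.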

How the data were processed

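The authors deposited raw read counts per gene, not normalised, and FPKM values, which scale fragments for gene length and library depth, for 6 libraries. The submitters' processing notes name bcl2fastq, TopHat2, edgeR and the build GRCh38. The counting program, the annotation release, the use of strand and all tool versions are not given in the labels or files used here, so reads of overlapping, antisense or near-identical genes may be shared.

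Members, classes, lists and the rule for named genes were chosen with earlier results of these data known. The rule named the 8 members of highest mean FPKM, the 8 highest and 8 lowest log2 fold changes at a mean count of 200 or more, the 5 smallest p-values, 10 members with described products, ANXA2, 3 members on each side of the floor, TRIM28, SETDB1, any silencing gene at p under 0.05 and any called member.

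The main test was edgeR's quasi-likelihood F test on the counts (edgeR 4.0.16, R 4.3.3), with TMM scaling, its default filter (minimum count 10, total 15) and no covariate, two-sided, on 15299 genes with Benjamini-Hochberg adjustment. Alternatives were RLE, upper-quartile and library-size scaling, no filter, DESeq2 1.42.0, limma 3.58.1 (voom, and trend on log2 FPKM with pseudocounts of 1 and 0.1), a replicate block, floors of 10 and 200, leaving out each library, the GC correction and members with few shared windows, the last 2 added after seeing the data. On simulated counts for this comparison with 15016 genes, 197 of 200 changed genes were recovered and 16 of 213 calls were false. The 200 genes had a mean count of 50 or more and were given a log2 fold change of 2 in either direction. All members lay between −0.83 and 0.51, so recovery of changes of that size was not tested. Replicates of a group differed beyond counting noise (chi-square per degree of freedom 9.64 to 49.7), so they were not copies of 1 library. Each was treated as 1 sample, although this does not show that they came from separate cultures. Member transcripts, domains and coordinates came from GENCODE release 44. Domain patterns were matched to the translated canonical coding sequence, and windows of 100 bases were compared between transcripts. A GC correction used a loess curve (span 0.3) per library as an offset.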

Additional observations from a re-analysis of the deposited data

How the results depend on the processing

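Under every alternative run, 0 members were called at an adjusted p of 0.05, although 165 genes of the whole table were called without the filter on low counts, 32 with DESeq2 and 4 without knockdown replicate 2. The median log2 fold change of the members was negative in each, and it moved beyond the spread between libraries without control replicate 2 (−0.043), with the GC offset (−0.030, chosen after seeing the data) and at a floor of 200 reads (−0.042). At that floor 64 members remained, 27 of them positive, 8 with groups that did not overlap and 7 at an unadjusted p under 0.05. Over all tested genes, without such a floor, 15.6% had groups that did not overlap and 8.18% had an unadjusted edgeR p under 0.05. The count of members at that p was 8 with limma-trend on log2(FPKM + 0.1), 4 with the GC offset and 4 with a replicate block. Over all tested genes it was 1270, 1001 and 1076 in these fits, against 1251 in the main fit. Same-numbered libraries correlated at r = −0.09, 0.17 and −0.26 in their deviations, and not every library went best with its own number, so the numbers were not taken as pairs.

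Leaving out 1 library at a time gave medians of −0.16 to −0.043, 7 to 17 members at an unadjusted p under 0.05, 57 to 75 positive members, 38 to 55 members without overlap of groups, a count that fewer libraries raise by construction, −0.11 to −0.02 for ANXA2 and 0 to 2 silencing genes at that p. Without the filter and with log2(FPKM + 1), 1 silencing gene reached it. Over all tested genes, the number at an unadjusted p under 0.05 ran from 505 without knockdown replicate 1 to 1947 without control replicate 1. The share of all genes without overlap of groups was not taken in the fits that left out a library.

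Of 36 named members, 13 changed sign under an alternative. Over the fits that left out 1 library the log2 fold change ran from −0.41 to 0.036 for ZNF224, −0.33 to 0.076 for ZNF382, −0.13 to 0.60 for ZNF565, −0.32 to 0.12 for ZNF146, −0.20 to 0.045 for ZNF304, −0.31 to 0.18 for ZNF331, −0.38 to 0.073 for ZNF350, −0.025 to 0.16 for ZNF358, −0.14 to 0.012 for ZNF579, −0.47 to 0.097 for ZNF91 and −0.17 to 0.085 for ZNF93. With the GC offset it was 0.023 for ZNF331, −0.10 for ZNF358, −0.073 for ZNF444, −0.10 for ZNF787 and 0.069 for ZNF93. The causes were not tested.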
